A study of Mus musculus with 4 samples.

Results

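The genes described here encode the giant ruler proteins and the thick filament cross-linkers of the sarcomere, the contractile unit of striated muscle. They were taken by gene symbol from a list of 9: *Ttn* (titin), *Neb* (nebulin), *Obsl1* (obscurin-like 1), *Myom1*, *Myom2* and *Myom3* (the myomesins), *Mybpc1* and *Mybpc2* (the slow and fast skeletal myosin-binding proteins C) and *Mybph* (myosin-binding protein H). All 9 were found among the 24054 symbols of the count table, and all 9 passed the filter on low counts, which left 13652 genes for testing.

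RNA was sequenced from soleus muscles of *mdx* mice (C57BL/10ScSn background), which carry a mutation of the dystrophin gene and are a model of Duchenne muscular dystrophy. Every mouse was *mdx*, and healthy muscle was not analysed here. Female mice received monthly femoral vein infusions from 8 weeks of age up to the 12-month endpoint, of either mouse cardiosphere-derived cells (mCDCs, heart-derived stromal cells grown from the heart of 1 C57BL/10ScSn/J mouse and used at passage 5) or the vehicle, a culture medium without cells. There were 2 libraries per group, and the summed expected counts ran from 22481391 to 27187425 per library. Nothing in the labels ties a library to more than its muscle, so p-values speak for these libraries only. Those of fold changes rest on a spread between libraries that is estimated in part from other genes. An exact permutation test over 2 against 2 samples cannot go below p = 0.333.

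As background, titin spans from the Z-disc to the M-band, and its I-band part acts as a spring. Nebulin lies along the thin filament and is needed for its normal length. The myomesins bridge neighboring thick filaments at the M-band, the midline of the sarcomere. Myosin-binding proteins C and H sit in stripes on the thick filament and modulate the myosin heads. Several of the families have fiber type-specific members, and the mouse soleus is a mixed muscle of slow and fast oxidative fibers.

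Between mCDC and vehicle solei, *Ttn*, *Neb* and *Myom1* were 0.793 to 0.857 times as high with mCDCs. None of these differences passed the test, which estimates the spread in part from other genes. With the trend with transcript length and GC content removed, their log2 fold changes of -0.22, -0.34 and -0.26 became -0.07, -0.15 and -0.11. None of the 9 was called, where a call needed a change of more than 1.5-fold and p under 0.05, unadjusted, in edgeR's quasi-likelihood test. In all tested genes the same rule called 546 genes, or 4%, of which 172 were higher and 374 lower with mCDCs. At an adjusted p under 0.05 the test called 0 genes, or 0% (947 genes had an unadjusted p under 0.05). By the same limit DESeq2 called 51 genes, edgeR's exact test 58 and its likelihood ratio test 66. The median log2 fold change of the 9 genes was -0.05, against -0.01 over all tested genes. Single values ran from -0.34 for *Neb* to 1.02 for *Mybpc2*, and 5 genes were below 0. The *Mybpc2* value turned to -2.89 without mCDC replicate 1 and to -0.36 with a replicate block, and *Mybph*, next at 0.70, stood at 0.06 without mCDC replicate 2. The 95% interval of the log2 fold change included 0 for 9 of 9 genes, and adjusted p ran from 0.724 to 0.967. These intervals still leave room for differences, for *Neb* from a 0.598-fold to a 1.05-fold level.

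Both giant filament rulers were lower in each mCDC library than in each vehicle library, by less than the test could resolve. Both differences shrank with the trend with length and GC content removed, as given above. CPM here are counts per 1000000 counts of the library, after TMM (trimmed mean of M-values) scaling of library sizes, so they compare libraries and not genes of different length. *Ttn* measured 9418 and 9587 CPM with mCDCs and 11351 and 10827 CPM with vehicle. The group means were 9502 ± 120 and 11089 ± 370 CPM (SD, n = 2 each), and the groups did not overlap. Its log2 fold change was -0.22 (SE 0.21, 95% interval -0.71 to 0.26, adjusted p = 0.820 in edgeR's quasi-likelihood test). *Neb* measured 3586 and 3432 CPM with mCDCs (3509 ± 109, SD, n = 2) and 4597 and 4256 CPM with vehicle (4427 ± 241). Here too the groups did not overlap, and the log2 fold change was -0.34 (SE 0.18, 95% interval -0.74 to 0.07, adjusted p = 0.735 in edgeR's quasi-likelihood test). Unadjusted p of *Neb* was 0.094 in that test and 0.044 in DESeq2's Wald test (adjusted p = 0.999). With library totals alone the quasi-likelihood test gave 0.039 (adjusted p = 0.615). Both mCDC libraries were below both vehicle libraries for 3 of the 9 genes, and for 19.5% of all tested genes.

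**Figure D1:**
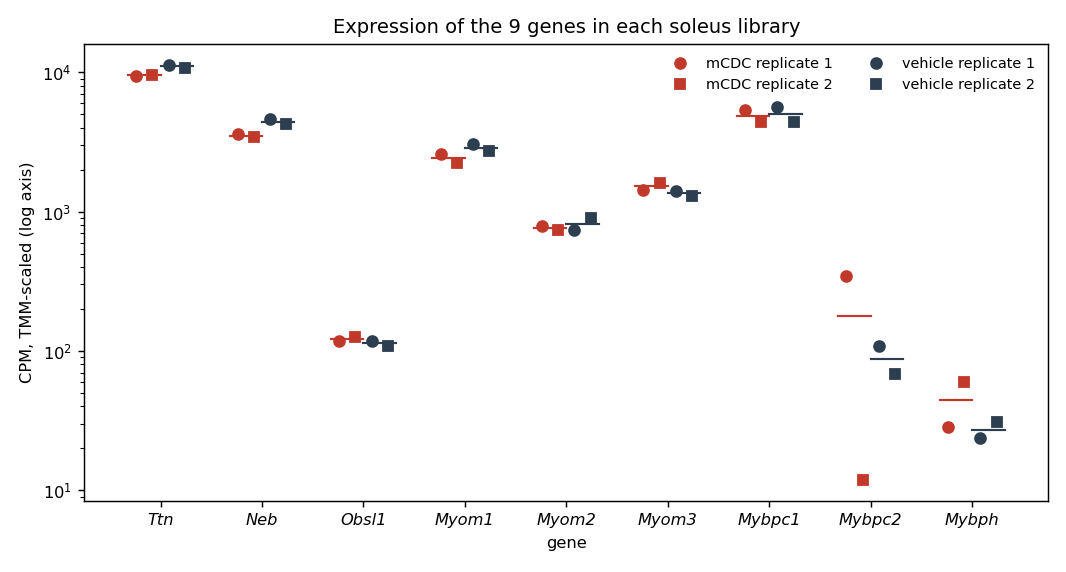
TMM-scaled CPM (log axis) of each gene in the 4 soleus libraries, with short bars at the group means (n = 2). For *Ttn*, *Neb* and *Myom1* the mCDC points sit below the vehicle points, and the *Mybpc2* points of the 2 mCDC libraries lie 29.1-fold apart.

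Titin took up a large share of the counts for a single gene. *Ttn* made up 0.915% and 0.934% of all counts with mCDCs and 1.15% and 1.13% with vehicle. The 9 genes together held 2.29% and 2.16% of counts with mCDCs and 2.73% and 2.57% with vehicle. For both shares the groups were separate (two-sided exact permutation test, p = 0.333, the smallest it can give). Shares scale by library totals alone, under which the median log2 fold change of all tested genes was -0.09 and that of *Ttn* -0.30. *Ttn* alone accounted for between 39.9% and 43.9% of the counts of the 9 genes in every library. The ratio of *Neb* to *Ttn* was 0.381 and 0.358 with mCDCs against 0.405 and 0.393 with vehicle. The log2 difference of this ratio was -0.11 (two-sided exact permutation test, p = 0.333), and -0.067 without mCDC replicate 2. *Ttn* to *Myh7*, the slow myosin heavy chain, was 0.201 and 0.244 with mCDCs and 0.239 and 0.283 with vehicle, and the groups overlapped (two-sided exact permutation test, p = 0.667).

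*Obsl1*, which also serves the 3M growth complex outside the sarcomere, measured 118 and 127 CPM with mCDCs and 118 and 109 CPM with vehicle. The groups overlapped, with a log2 fold change of 0.11 (SE 0.13, 95% interval -0.19 to 0.40), and 0.06 without mCDC replicate 2, 0.05 without vehicle replicate 2 or 0.03 with library totals alone. The partners of *Obsl1* in the 3M complex gave 0 calls among 3, and the value farthest from 0 was 0.12 on the log2 scale, for the substrate adaptor *Fbxw8*, which stood at 0.07 without mCDC replicate 2 or without vehicle replicate 2.

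At the M-band, none of the 3 myomesins passed the test. *Myom1*, the myomesin of all striated muscle, measured 2581 and 2237 CPM with mCDCs and 3037 and 2714 CPM with vehicle. Both mCDC libraries were the lower ones (log2 fold change -0.26, SE 0.17, 95% interval -0.66 to 0.15, adjusted p = 0.768 in edgeR's quasi-likelihood test), and the value was -0.16 without mCDC replicate 2 and -0.17 without vehicle replicate 1. *Myom2*, the M-protein of fast fibers and heart, measured 795 and 742 CPM with mCDCs and 742 and 895 CPM with vehicle. Its groups overlapped, and the fold change was -0.09 on the log2 scale (95% interval -0.45 to 0.26). It was -0.22 without vehicle replicate 1, 0.05 without vehicle replicate 2 and -0.17 with library totals alone. *Myom3*, a myomesin of intermediate-speed fibers, measured 1424 and 1610 CPM with mCDCs and 1409 and 1304 CPM with vehicle. It was the single gene of the 9 with both mCDC libraries above both vehicle libraries, a pattern seen in 19.2% of all tested genes. The log2 fold change of *Myom3* was 0.16 (SE 0.16, 95% interval -0.20 to 0.52, adjusted p = 0.822 in edgeR's quasi-likelihood test), and 0.07 without mCDC replicate 2, 0.11 without vehicle replicate 2 or 0.08 with library totals alone.

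Ratios to *Myom2* within a library overlapped between groups. *Myom1* to *Myom2* stood at 3.25 and 3.01 with mCDCs and at 4.09 and 3.03 with vehicle (two-sided exact permutation test, p = 0.667). *Myom3* to *Myom2* stood at 1.79 and 2.17 with mCDCs and at 1.90 and 1.46 with vehicle (two-sided exact permutation test, p = 0.667). *Myom1* to *Myom3*, a pair added after the data were seen, stood at 1.81 and 1.39 with mCDCs and at 2.16 and 2.08 with vehicle, and did not overlap (two-sided exact permutation test, p = 0.333, the smallest it can give). The log2 difference of this ratio was -0.42, and -0.23 without mCDC replicate 2. Over the 6 ratios compared, Benjamini-Hochberg adjusted p was 0.8 or more. Energy enzymes that bind at the M-band and I-band gave 0 calls among 5, with a median log2 fold change of 0.06. The value farthest from 0 in that list was -0.17, for *Ampd1*, the muscle AMP deaminase, which stood at -0.50 without mCDC replicate 1 and at 0.10 without mCDC replicate 2.

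The promoter window of *Myom1* is shown because it held the only match, among the 7 genes with a window, to a CArG box, the site of serum response factor. It is the 250 bases before the RefSeq start (GRCm38.p6, chr17:71019307-71019556, plus strand), written 5′ to 3′ with the CArG box in capitals.
Myom1: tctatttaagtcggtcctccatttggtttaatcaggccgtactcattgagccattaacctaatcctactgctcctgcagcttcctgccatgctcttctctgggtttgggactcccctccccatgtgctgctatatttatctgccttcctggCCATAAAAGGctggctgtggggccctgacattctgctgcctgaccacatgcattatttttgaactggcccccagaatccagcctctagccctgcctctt
The box lay 99 to 90 bases upstream of the start, and 1.5% of 32851 such windows held one on either strand. A match is a description of the letters and does not show that a factor binds there.

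The myosin-binding proteins held the most scattered values of the group, beside a slow form that was steadier. *Mybpc1*, the slow skeletal form, measured 5332 and 4373 CPM with mCDCs and 5644 and 4433 CPM with vehicle. The groups overlapped, and the log2 fold change was -0.05 (SE 0.21, 95% interval -0.54 to 0.44, adjusted p = 0.967 in edgeR's quasi-likelihood test). The sign turned without mCDC replicate 2 (0.08) and without vehicle replicate 1 (0.13), and the value was -0.20 without mCDC replicate 1, -0.22 without vehicle replicate 2 and -0.13 with library totals alone. *Mybpc2*, the fast skeletal form, measured 344 and 11.8 CPM with mCDCs and 108 and 67.8 CPM with vehicle. Both the highest and the lowest library thus belonged to the mCDC group, and the vehicle libraries lay between them.

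The *Mybpc2* fold change therefore rested on 1 library. The fitted log2 fold change was 1.02 (SE 1.05, 95% interval -1.42 to 3.45, adjusted p = 0.834 in edgeR's quasi-likelihood test), while the difference of the mean log2 CPM was -0.42, the opposite sign. Without mCDC replicate 1 the fitted value was -2.89 (adjusted p = 4.8e-05), and without mCDC replicate 2 it was 1.97 (adjusted p = 0.000814), both with edgeR's quasi-likelihood test, in which the lone library is assumed to vary like the others. The 2 mCDC libraries differed 29.1-fold in *Mybpc2*, and 99.93% of the 5554 genes with a mean of 20 CPM or more differed less between them. Vehicle libraries differed 1.60-fold. The ratio of *Mybpc1* to *Mybpc2* was 15.5 and 370 with mCDCs and 52.2 and 65.4 with vehicle (two-sided exact permutation test, p = 1).

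Markers of fast fibers were also spread over these libraries. *Myh4*, the fastest myosin heavy chain, measured 2096 and 47.5 CPM with mCDCs and 163 and 411 CPM with vehicle, so that the mCDC libraries were again its highest and lowest. Over the 13 fast fiber genes, the mean log2 CPM was 11.46 and 10.21 with mCDCs and 10.74 and 10.96 with vehicle. Their summed level was 44783 and 38114 CPM (library totals) with mCDCs and 38093 and 49257 with vehicle, so by this measure the highest and the lowest library were both vehicle. Over the 10 slow fiber genes it was 12.29 and 12.12 with mCDCs and 12.16 and 12.01 with vehicle, and the summed level was 96717 and 84405 CPM with mCDCs and 97937 and 85327 with vehicle. None of the 13 fast or the 10 slow genes was called with all 4 libraries. *Myh4* was called in opposite directions without mCDC replicate 1 (-2.59 on the log2 scale) and without mCDC replicate 2 (2.87). The part that fiber makeup had in the *Mybpc2* values was not tested, and in whole muscle fewer fibers of a type and less RNA per fiber cannot be told apart.

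*Mybph*, a smaller relative of myosin-binding protein C that is low in adult muscle, was the gene closest to a call. It measured 28.4 and 60.3 CPM with mCDCs and 23.6 and 30.7 CPM with vehicle. One mCDC library stood above the other 3, and the remaining mCDC library lay among the vehicle values. The log2 fold change was 0.70 (SE 0.32, 95% interval -0.03 to 1.44, unadjusted p = 0.0577, adjusted p = 0.724 in edgeR's quasi-likelihood test). Without mCDC replicate 2, the high library, it was 0.06, and without mCDC replicate 1 it was 1.15 (adjusted p = 0.021 in edgeR's quasi-likelihood test). DESeq2, edgeR's exact test and its likelihood ratio test each called it, with log2 fold changes of 0.72, 0.71 and 0.71 and adjusted p from 0.662 to 0.700. A replicate block in the quasi-likelihood test also called *Mybph*, at 0.62 (adjusted p = 0.655). *Mybph* shares 49.9% of its exonic bases with *Adora1*, an adenosine receptor gene on the opposite strand, and the strand setting of the counting is not given in the sources used here. Summing both genes gave 31.6 and 65.5 CPM with mCDCs and 27.1 and 33.9 CPM with vehicle, with the same library on top.

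The windows of the myosin-binding protein genes are shown together because their values behaved so differently. Each is the 250 bases before the RefSeq start on GRCm38.p6, written 5′ to 3′ on the gene's own strand. Capitals mark the E-box form CAGCTG, a letter run bound by myogenic factors. Other forms of the E-box were not searched, so a window without capitals may still hold one. *Mybpc1* lies at chr10:88605153-88605402 (minus), *Mybpc2* at chr7:44524670-44524919 (minus) and *Mybph* at chr1:134193198-134193447 (plus).
Mybpc1: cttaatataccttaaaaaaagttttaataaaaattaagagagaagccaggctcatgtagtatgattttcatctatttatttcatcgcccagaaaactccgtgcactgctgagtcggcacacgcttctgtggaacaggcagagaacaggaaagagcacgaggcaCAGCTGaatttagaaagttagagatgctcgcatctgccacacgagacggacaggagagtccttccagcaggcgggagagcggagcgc
Mybpc2: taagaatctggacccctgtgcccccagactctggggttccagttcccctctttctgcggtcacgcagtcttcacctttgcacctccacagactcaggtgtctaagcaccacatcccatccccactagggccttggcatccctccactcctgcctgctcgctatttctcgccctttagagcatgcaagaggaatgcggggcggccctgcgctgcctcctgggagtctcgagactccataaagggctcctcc
Mybph: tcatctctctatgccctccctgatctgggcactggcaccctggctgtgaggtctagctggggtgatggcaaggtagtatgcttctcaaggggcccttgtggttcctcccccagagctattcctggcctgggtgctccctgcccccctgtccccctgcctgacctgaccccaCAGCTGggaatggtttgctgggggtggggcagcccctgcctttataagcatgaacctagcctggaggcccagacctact
The letters CAGCTG lay 87 to 82 bases upstream of the start in *Mybpc1* and 79 to 74 bases upstream in *Mybph*. They are not in the *Mybpc2* window. RefSeq windows were matched for 7 of the 9 genes, not for *Neb* or *Myom2*. The form CAGCTG was in 3 of the 7, the third being *Obsl1*, and in 13.0% of all windows. The MEF2 site TATTTATA and its variant TATTTTTA were in 0 of the 7, against 1.6% and 2.5% of all windows.

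Compared per length, the order of the levels was quite different from the order in CPM. A long transcript gives more reads per molecule, so counts were divided by the kilobases of a chosen annotated transcript of each gene. RefSeq-linked transcripts were taken first, then protein-coding ones, then the longest. The values were scaled to a sum of 1000000 in every library. On this scale *Mybpc1* was highest at 2671, the mean of the 4 libraries, followed by *Myom1* at 993, *Myom3* at 543, *Neb* at 375 and *Myom2* at 331. *Ttn*, first by CPM, came sixth at 217, ahead of *Mybpc2* at 77.1, *Obsl1* at 43.8 and *Mybph* at 40.8.

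**Figure D2:**
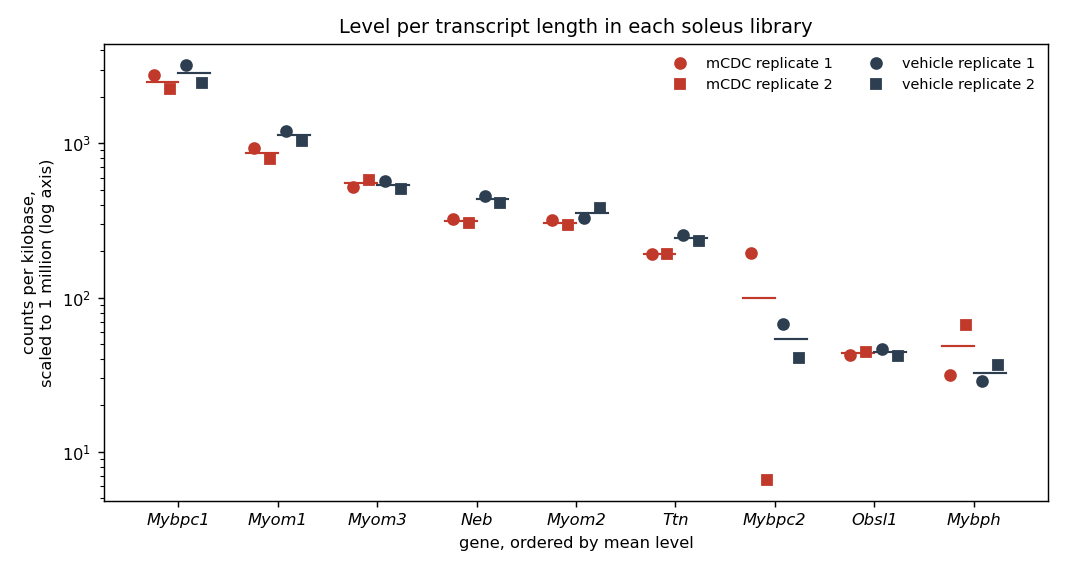
Counts per kilobase of the chosen annotated transcript, scaled to a sum of 1000000 in every library (log axis), for each gene in the 4 soleus libraries, ordered by mean level. Short bars are group means (n = 2), and *Ttn* stands sixth at a mean of 217.

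The first gaps in this order exceeded the spread over libraries. *Mybpc1* ranged from 2237 to 3230, above *Myom1* at 795 to 1207, and *Myom1* was above *Myom3* at 507 to 579 in this per-length level. *Neb* (306 to 459) overlapped with *Myom2* (293 to 382), and *Myom2* was above *Ttn* (191 to 254). From *Ttn* down no neighbors were separate: *Mybpc2* ran from 6.57 to 194, *Obsl1* from 41.7 to 46.6 and *Mybph* from 29.0 to 66.1. The place of *Ttn* depends on the length used. The chosen *Ttn* transcript model has 100404 bases and the median model 2093 bases, a fragment of the gene. With the median *Ttn* came first. Other places moved too, the order then being *Ttn*, *Mybpc1*, *Neb*, *Myom1*, *Myom2*, *Myom3*, *Obsl1*, *Mybpc2* and *Mybph*.

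Gene models of GENCODE on GRCm38 show how far the sizes differ. *Ttn* lies at chr2:76703980-76982547 on the minus strand, with 312 exons in its chosen transcript. *Neb* lies on the same chromosome at chr2:52136647-52378474, minus strand, with 157 exons and 22489 bases. The chosen transcripts of *Myom1*, *Myom2*, *Myom3*, *Obsl1*, *Mybpc1* and *Mybpc2* are between 3611 and 5679 bases long, and that of *Mybph* has 1828 bases. Apart from *Mybph*, the largest overlap of exonic bases with a gene on the other strand was 5.57%, in *Mybpc1*.

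Fold changes across all genes shifted with transcript length, which bears on genes this long. The median log2 fold change was 0.10 for 812 genes under 1 kilobase and 0.07 for 2835 genes of 1 to 2 kilobases. For 5464 genes of 2 to 4 kilobases it was 0.02. It fell to -0.11 for 3753 genes of 4 to 8 kilobases, -0.18 for 641 genes of 8 to 16 kilobases and -0.11 for the 29 genes over 16 kilobases, which include *Ttn* and *Neb*. Of those 29 genes, 19 were below 0 and 0 were called. *Neb* and *Ttn* both lay below the median of their length class.

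**Figure D3:**
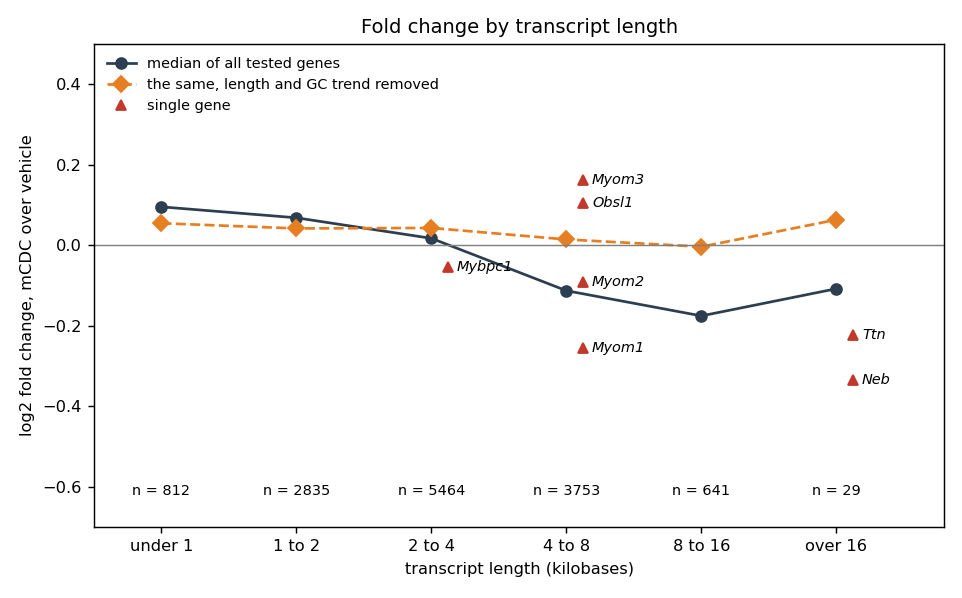
Median log2 fold change (mCDC over vehicle) of tested genes in 6 classes of transcript length, as fitted and after removal of the trend with length and GC content, with the number of genes in each class. Triangles are single genes (*Mybpc2* at 1.02 and *Mybph* at 0.70 lie off the axis), and *Ttn* at -0.22 and *Neb* at -0.34 lie below the median of -0.11 for genes over 16 kilobases.

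With the trend with length and GC content removed, the log2 fold change of *Ttn* was -0.07, that of *Neb* -0.15 and that of *Myom1* -0.11. Each of the 3 values moved toward 0 by over 1.5 times and kept its sign. *Myom2* and *Mybpc1* changed sign to 0.03 and 0.04, *Myom3* rose from 0.16 to 0.27, and *Mybpc2* and *Mybph* stood at 1.02 and 0.67. This correction called 210 genes higher and 295 lower over all genes, so 41.6% of calls were higher against 31.5% before it. At the lengths of *Ttn* and *Neb* the trend rests on few genes, as only 29 were over 16 kilobases. What gives rise to the trend with length was not tested.

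**Figure D4:**
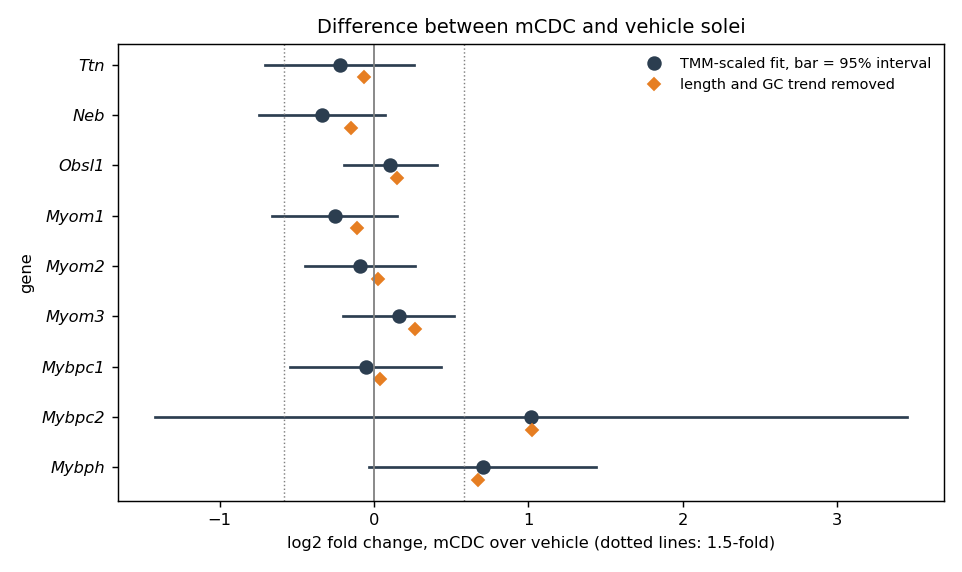
Log2 fold change (mCDC over vehicle) of each gene with its 95% interval from the TMM-scaled fit (circles), and after removal of the trend with length and GC content (diamonds, no interval drawn). All 9 intervals cross 0, and the *Mybpc2* interval runs from -1.42 to 3.45.

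Proteins that bind titin, nebulin or the thin filament end were also listed. Of 22 such genes, 4 were called higher and 0 lower, with a median log2 fold change of 0.18, beside 4% called over all genes. *Ankrd2*, a stretch-responsive ankyrin repeat protein at the titin spring, measured 1995 and 3224 CPM with mCDCs and 1247 and 1389 CPM with vehicle. Both mCDC libraries were above both vehicle libraries, with a log2 fold change of 0.99 (SE 0.24, adjusted p = 0.567 in edgeR's quasi-likelihood test). *Ankrd2* was called with each of the 4 libraries left out in turn, at 0.60 without mCDC replicate 2.

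The other called partners lost their call without the same mCDC library. *Klhl40*, a nebulin-stabilizing kelch protein, measured 383 and 703 CPM with mCDCs and 287 and 282 CPM with vehicle (log2 fold change 0.93). *Ankrd1*, a relative of *Ankrd2*, measured 118 and 256 CPM with mCDCs and 118 and 110 CPM with vehicle (log2 fold change 0.72). *Fhl3*, a LIM domain protein, measured 235 and 313 CPM with mCDCs and 170 and 173 CPM with vehicle (log2 fold change 0.68). Without mCDC replicate 2 these 3 log2 fold changes were 0.43, 0.06 and 0.45, and none of the 3 was called. *Ankrd1* was also not called without either vehicle library, at 0.78 and 0.67.

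Among 6 chaperones and factors of sarcomere assembly, 2 were called higher and 0 lower, beside 4% called in either direction over all tested genes. The median log2 fold change was 0.36. The called genes were the small heat shock proteins *Hspb1*, at 674 and 1405 CPM with mCDCs and 500.3 and 530.2 CPM with vehicle, and *Cryab*, at 4742 and 6119 CPM with mCDCs and 3231 and 3542 CPM with vehicle. Neither was called without mCDC replicate 2 (0.39 and 0.49 on the log2 scale) or without vehicle replicate 1 (0.98 and 0.62). Among 16 transcription and splicing factors of sarcomere genes, 0 were called higher and 1 lower, beside the same 4%. That gene was *Prox1*, a homeobox factor of slow fibers, at 4.54 and 3.15 CPM with mCDCs and 9.81 and 4.73 CPM with vehicle (log2 fold change -0.91). *Prox1* was not called without mCDC replicate 2 (-0.67) or vehicle replicate 1 (-0.29), nor with the length and GC trend removed (-0.75). Its levels are low, and the higher vehicle library set most of the difference.

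Of 10 listed family members outside the 9 genes, 7 were tested and 0 were called, with a median log2 fold change of 0.08. The value farthest from 0 was that of *Igfn1*, an immunoglobulin and fibronectin domain protein of skeletal muscle, at 32.5 and 30.3 CPM with mCDCs and 45.6 and 47.4 CPM with vehicle. Its log2 fold change of -0.57 (SE 0.14, adjusted p = 0.567 in edgeR's quasi-likelihood test) was just short of the fold limit of 1.5, and *Igfn1* was called without mCDC replicate 1 (-0.62) and without vehicle replicate 1 (-0.59).

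The libraries also differed in markers of other cells, whose part in the values above was not tested. Fibroblast genes were lower with mCDCs in 3 of 8 (*Pdgfra*, *Lum*, *Col1a2*), endothelial genes in 1 of 6 (*Vwf*), and satellite cell genes were higher in 3 of 5 (*Pax7*, *Myod1*, *Myog*), beside 4% called in either direction over all tested genes. The summed level of the 8 fibroblast genes was 377 and 331 CPM (library totals) with mCDCs and 390 and 662 with vehicle, so 1 vehicle library stood out. The summed level of the 6 satellite cell genes was 131 and 139 CPM with mCDCs and 83.2 and 97.6 with vehicle. Without vehicle replicate 2 none of *Pdgfra*, *Lum*, *Col1a2* and *Vwf* was called (-0.23, -0.47, -0.31 and -0.55 on the log2 scale), and *Pdgfra* and *Col1a2* were also not called without mCDC replicate 2 (-0.57 and -0.54) or with the length and GC trend removed (-0.59 and -0.52). *Pax7* was called with vehicle replicate 1 left out (0.88) and not with any of the other 3 left out (0.65 to 0.79). *Myod1* was not called without mCDC replicate 1 (0.44) or vehicle replicate 1 (0.64), nor *Myog* without mCDC replicate 2 (0.51).

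Other lists showed scattered calls, to be read beside the 4% called in either direction over all tested genes. The 12 immediate early genes, a sign of handling, had *Atf3* higher (1.65 on the log2 scale, 0.74 without mCDC replicate 2) and *Zfp36* lower (-0.70, -0.31 without vehicle replicate 1). The macrophage list had *Cd68* higher and *Csf1r* lower among 8, the mural cell list *Cspg4* higher and *Rgs5* lower among 5, and the tendon list *Scx* higher with *Tnmd* and *Fmod* lower among 5. The hemoglobin gene *Hba-a2* was lower (-1.04 on the log2 scale) among 7 blood genes, where *Hbb-bs* had the value farthest from 0, -1.49, and was not called. That value rested on vehicle replicate 2, without which it was 1.06, and it was -2.35 without vehicle replicate 1, both called. Of the called genes, *Atf3*, *Tnmd*, *Scx* and *Hba-a2* were called with each library left out in turn, and every other one was not called without at least 1 library. *Rgs5* also lost its call once the length and GC trend was taken out (-0.48). Regenerating fiber (7 tested), adipocyte (6), Schwann cell (6) and heart muscle (4) lists gave 0 calls. The 4 heart muscle genes that did not pass the filter reached at most 7 counts. No lymphocyte or neutrophil gene was tested, the highest counts in any library being 9 and 7.

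The genes whose profile over the 4 libraries was nearest to that of a ruler gene were not sarcomere genes. Nearness was the Euclidean distance between log2 CPM centered on the gene's mean, over 5554 genes with a mean of 20 CPM or more. For *Ttn* these were *Trp53bp1* (distance 0.013), *Atp9b* (0.023) and *Cirbp* (0.028), and for *Neb* they were *Kif21a* (0.031), *Pde8a* (0.033) and *Trim24* (0.044). For *Mybph* they were *Anxa2* (0.149), *Manf* (0.154) and *Nab2* (0.178), each highest in the same mCDC library. With 4 libraries such distances describe these samples and no shared control.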

How the data were processed

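RNA-seq libraries of soleus muscle from *mdx* mice were grouped by the labels into mCDC (n = 2) and vehicle (n = 2). The authors deposited RSEM expected counts per gene symbol, without normalization, from single-end reads. Submitters' processing notes name Bowtie2 2.1.0, RSEM 1.2.15 and mm10. The labels and the study's methods name different library kits, and the strand setting is not given in the sources used here. Expected counts (15.7% of values not whole) were rounded. Tests used R 4.3.3 with edgeR 4.0.16 (TMM, filterByExpr, quasi-likelihood F-test with legacy = FALSE, no replicate block). Genes were called at a fold over 1.5 and an unadjusted p under 0.05, with Benjamini-Hochberg adjustment over 13652 genes. SE was the absolute log2 fold change over the root of F, with 95% intervals from the t distribution. Log2 CPM used a prior count of 2. Ratios and shares were compared by exact permutation over samples. Transcript lengths and positions came from GENCODE M21 on GRCm38 (99.1% of tested genes had a length), and promoter windows from RefSeq. The script was checked on simulated data.

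The members and lists were chosen with earlier results of these data known. The text names all 9 members, from other lists at most the called genes and the gene with the value farthest from 0 (not named for every list), and the 3 nearest genes for *Ttn*, *Neb* and *Mybph*. *Adora1* was named, and the *Myom1* to *Myom3* ratio added, after the data were seen, and 1 listed gene is not reported here. Planned protein comparisons were not made. Alternatives were DESeq2 1.42.0, other edgeR tests and scalings, other count filters, thinning, removal of the length and GC trend (loess, span 0.5), a replicate block and leaving out each library. Same-numbered libraries did not deviate together.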

Additional observations from a re-analysis of the deposited data

How the results depend on the processing

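The spread between replicates exceeded counting error (mean chi-square per gene 40.9 between mCDC and 39.5 between vehicle libraries), and n = 2 per group limits every comparison. Against vehicle replicates 1 and 2 it was 28.7 and 36.3 for mCDC replicate 1, and 56.0 and 47.7 for mCDC replicate 2. By this measure mCDC replicate 1 was closer to both vehicle libraries than to the other mCDC library. Of 144 values of the 9 genes under 16 alternatives, 131 kept their direction and their side of the threshold, and the signs of *Ttn*, *Neb*, *Myom1*, *Myom3*, *Obsl1* and *Mybph* did not change under them. DESeq2, edgeR's exact test, its likelihood ratio test and the replicate block each called 1 of the 9 genes, *Mybph* in each case, and leaving out 1 library called 0 to 2. Genes called over all tested genes numbered 480 with the replicate block, against 546, and 348 to 1107 with 1 library left out (mCDC replicate 1 left out gave 941, mCDC replicate 2 gave 348 and vehicle replicate 1 gave 1107). Replicate numbers were not used as pairs, because deviations of same-numbered libraries correlated at -0.04. The replicate block turned *Mybpc2* to -0.36. Removing the length and GC trend turned *Myom2* to 0.025 and *Mybpc1* to 0.037. With 1 library left out, *Myom1* ran from -0.36 to -0.16, *Myom3* from 0.07 to 0.25, *Obsl1* from 0.05 to 0.17, *Myom2* from -0.22 to 0.049, *Mybpc1* from -0.22 to 0.13 and *Mybpc2* from -2.89 to 1.97. The median log2 fold change of genes over 16 kilobases was -0.11, -0.19 with library totals and with totals without the 9 genes, -0.15 with at least 10 counts in every sample, -0.18 after thinning, 0.063 with the length and GC trend removed, and -0.18 to -0.10 with 1 library left out (-0.18 without vehicle replicate 1). *Ttn* ranked 1 per length with the median transcript. The share of calls that were higher was 31.5%, 19.2% with library totals and 17.7% with totals without the 9 genes. The causes were not tested.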
